A study of Mus musculus with 9 samples.

Results

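The genes described here are the UDP-glucuronosyltransferases (UGT) and sulfotransferases (SULT) of mouse kidney, the conjugating enzymes of drug and steroid metabolism. Members were all gene symbols that begin with Ugt1a, Ugt2a, Ugt2b, Ugt3a or Ugt8a, or with Sult and a digit, which gave 40 of the 23282 symbols in the deposited tables, 21 UGT and 19 SULT. The study holds 4 wild-type and 5 Bmal1 knockout kidney libraries of the C57BL/6 strain, read by sequencing of mRNA 3′ ends. No treatment or disease model is labelled, although the series title names the clock and chronic kidney disease. Age, sex, hour of collection, the deleted stretch of Bmal1 and the tissues in which it was deleted are not labelled either. Nor is it labelled whether the libraries come from separate animals, so the p-values cover the spread between libraries, which may be technical.

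UGT enzymes sit in the membrane of the endoplasmic reticulum and join a sugar from a UDP-sugar, mostly glucuronic acid, to drugs, bilirubin, steroids and fatty acids. SULT enzymes are cytosolic and transfer sulfate from the donor PAPS to phenols, catecholamines, steroids and other small molecules. Both reactions make their substrates more soluble in water, so that transporters can move them into urine or bile, and the kidney proximal tubule is a main site of conjugation outside the liver. Bmal1 (symbol Arntl) is the clock transcription factor that works with Clock or Npas2 at E-box sites.

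Values are given as deposited, log2(x + 1), where x is a read count per gene that the authors adjusted between libraries. The sum of x was 11765219 to 13486444 per library, and the raw depth is unknown. The method reads about 1 tag near the 3′ end of each transcript, so levels of different genes were compared without a correction for length. Genes with x of 10 or more in 4 or more libraries were tested, 13481 in all, and called changed at a limma adjusted p under 0.05. Arntl itself had a log2 difference of -0.84 between knockout and wild type (SE 0.21, limma adjusted p = 0.0112). A 3′ tag outside the deleted stretch is still read, so Arntl does not check the genotype labels. Rn45s, the ribosomal RNA precursor, took 5.07% to 11.3% of x in wild type and 6.83% to 14.4% in knockout. Globin genes took 0.619% to 1.54% and 0.897% to 3.56%. Wild type 2 and knockout 4 had the highest share of both in their genotype.

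Of the 40 members 13 passed the filter, 9 UGT and 4 SULT genes, and 5 of these changed. Ugt8a, Ugt2b38 and Ugt3a2 fell and Ugt2b34 and Sult1a1 rose, by 1.5- to 1.97-fold. In bulk tissue, fewer cells of a type and less RNA per cell cannot be told apart. Over all genes 14.4% changed, 6.16% higher and 8.2% lower, against 2 higher and 3 lower of 13 members. The median log2 difference was -0.10 over the 13 members and 0.0002 over all tested genes. The genotypes did not overlap for 4 of the 13 members, 2 higher and 2 lower in knockout, and for 14.3% of all tested genes, 5.86% higher and 8.46% lower. After scaling to the total without Rn45s, which moved the median of all genes to 0.10, 64.7% of all calls were higher against 42.9% as deposited. The UGT calls then were Ugt2b34 and Ugt2b37 higher and Ugt8a and Ugt2b38 lower. Ugt8a, Ugt2b38 and Ugt2b34 were called in all 22 alternative analyses and Sult1a1 in 18, while Ugt3a2 was called in 10. The plot of values by library and the plot of genotype differences show all 13.

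**Figure D1:**
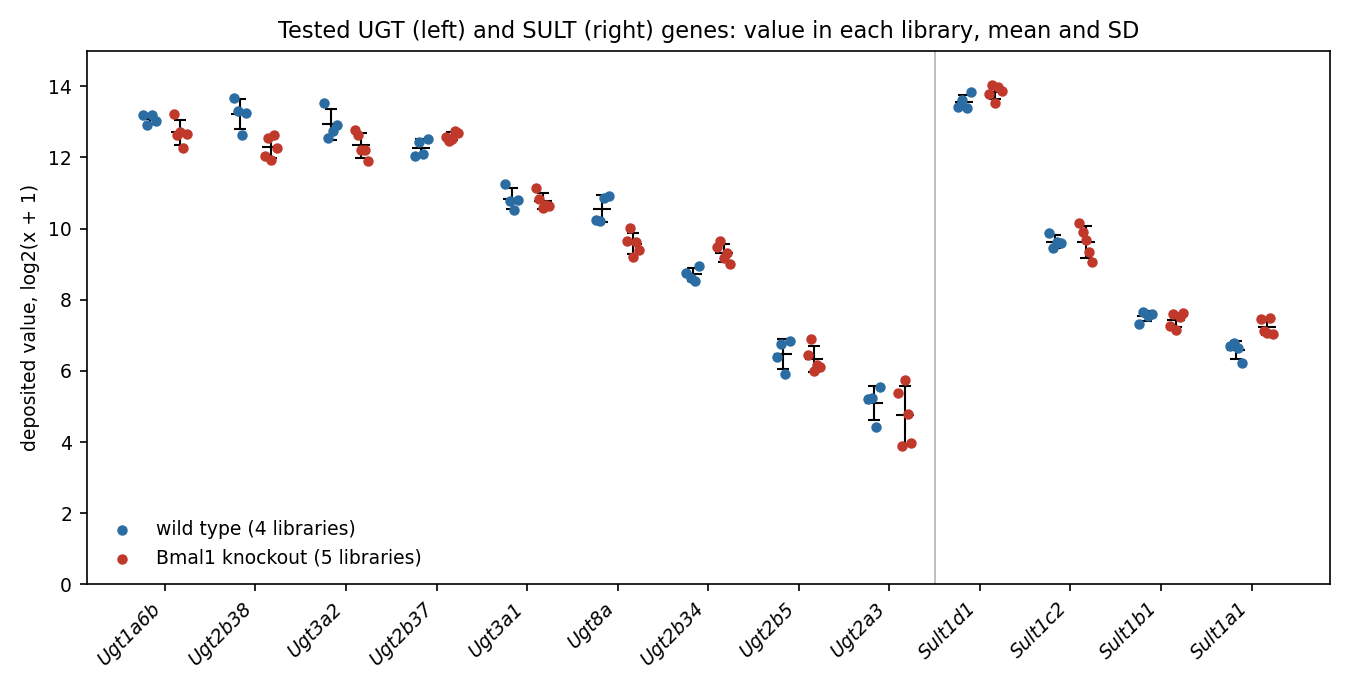
Deposited value, log2(x + 1), of each tested UGT gene (left of the line) and SULT gene (right) in 4 wild-type (blue) and 5 knockout (red) libraries; bars give the mean and SD. The knockout points of Ugt8a and Ugt2b38 lie below every wild-type point, and those of Ugt2b34 and Sult1a1 above.

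**Figure D2:**
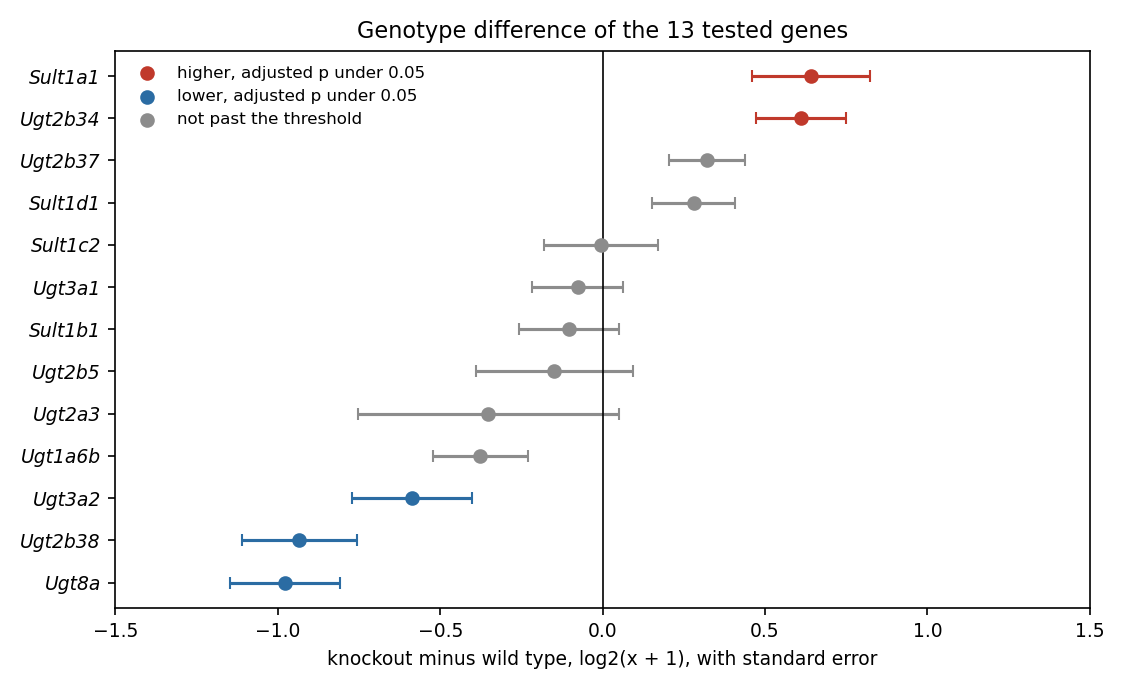
Knockout minus wild type on the log2(x + 1) scale with its standard error for the 13 tested members, ordered from highest to lowest. Sult1a1 and Ugt2b34 are higher (red), Ugt3a2, Ugt2b38 and Ugt8a are lower (blue), and the other 8 (grey) did not pass an adjusted p of 0.05.

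The Ugt1a genes share a locus on chromosome 1 in which each gene has its own first exon and all use the same last exons, so that a tag in the shared 3′ part names the locus but not the gene. In the GENCODE annotation of GRCm38 the last exons of all 8 Ugt1a members start at 88218127 and have 871 bases in common (+ strand). Coding sequences from the GENCODE transcripts are shown here because they show this: the first 60 bases set most genes apart, with Ugt1a6a equal to Ugt1a6b, while the last 60 before the stop codon are the same in all 4 genes shown.
Ugt1a6b, first 60 coding bases: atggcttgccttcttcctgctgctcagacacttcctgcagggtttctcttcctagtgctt
Ugt1a1, first 60 coding bases: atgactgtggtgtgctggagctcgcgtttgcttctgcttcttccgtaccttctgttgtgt
Ugt1a10, first 60 coding bases: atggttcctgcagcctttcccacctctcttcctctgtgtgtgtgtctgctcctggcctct
Ugt1a6b, Ugt1a6a, Ugt1a1 and Ugt1a10, last 60 coding bases: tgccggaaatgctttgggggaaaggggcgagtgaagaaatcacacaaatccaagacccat

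The deposited tables hold nearly all reads of this locus in 1 row, Ugt1a6b. That row carried 99.845% to 99.997% of the summed x of the 8 Ugt1a rows in each library, and the other 7 rows together summed to an x of 0.143 to 14.4. The value of Ugt1a6b is therefore a value of the shared 3′ end, and nothing can be read from it about Ugt1a1, the bilirubin-conjugating form, Ugt1a6a or Ugt1a6b, which act on phenols, or any other single form. Every 50-base stretch in the last 500 bases of the Ugt1a6b transcript also occurs in a transcript of another Ugt1a gene. Among the other rows Ugt1a10 reached an x of 6.62 and Ugt1a7c 8.77, Ugt1a1 2.17, Ugt1a6a 2.01, Ugt1a2 1.98 and Ugt1a5 0.896, and Ugt1a9 was at 0 in all 9 libraries. GENCODE gives Ugt1a7c a 3′ end that runs past that of the others, to 88220002, and its last 500 bases share no 50-base stretch with another gene. A noncoding gene on the other strand, Gm20528, also overlaps exons of Ugt1a6b.

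The Ugt1a6b row was among the most abundant members, above 98.7% of tested genes by mean level. Ugt1a6b read 13.19, 12.90, 13.20 and 13.03 in the wild types, against 13.24, 12.63, 12.73, 12.27 and 12.65 in the knockouts. Knockout 1 was the highest of all 9 libraries and the other 4 knockouts were below all wild types. The difference was -0.38 (SE 0.15, limma adjusted p = 0.101) and did not pass. Without knockout 1 it was -0.51 (limma adjusted p = 0.00905), the only one of 22 alternatives to give a call.

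The Ugt2 genes form a cluster on chromosome 5, followed by Sult1b1, Sult1d1 and Sult1e1. Among the 5 tested Ugt2 genes 1 rose, 1 fell and 3 did not pass. UGT2B enzymes glucuronidate steroids, bile acids, fatty acids and drugs. The plot of the chromosome 5 cluster shows the levels in gene order.

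**Figure D3:**
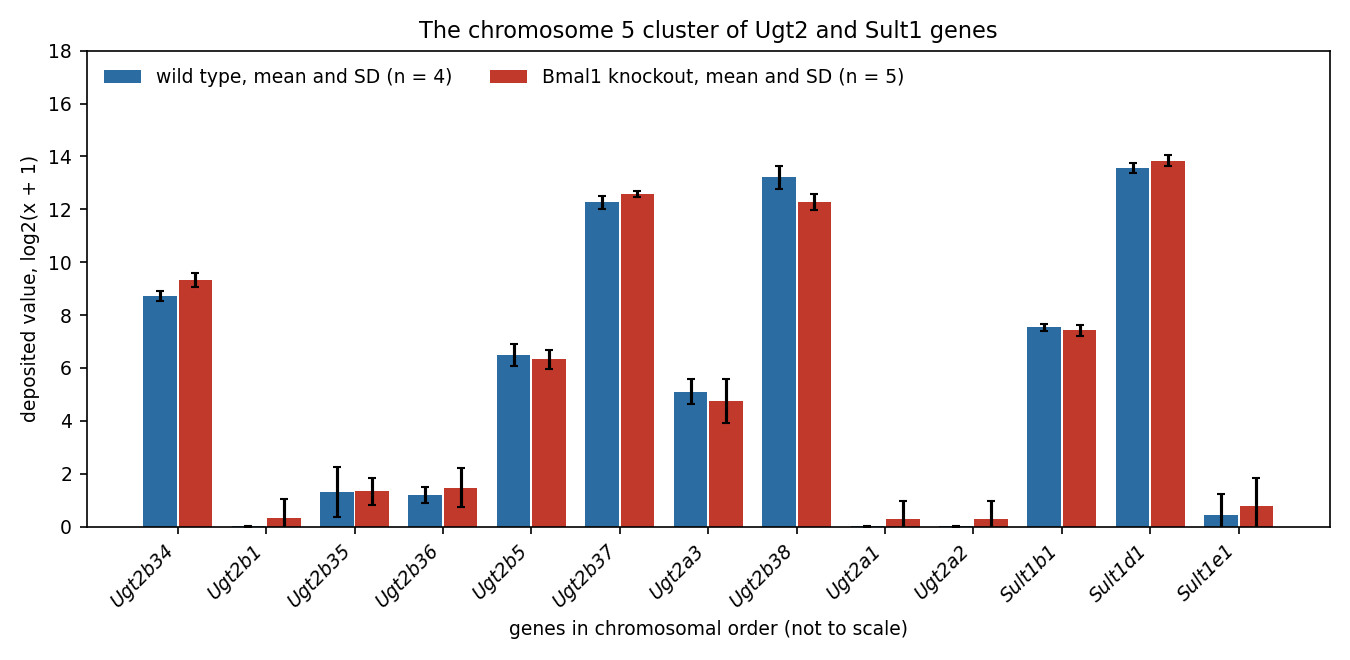
Mean deposited value, log2(x + 1), with SD, of each member on chromosome 5 in wild type (blue, n = 4) and knockout (red, n = 5), in chromosomal order and not to scale. Ugt2b37, Ugt2b38 and Sult1d1 have means above 12 in both genotypes, next to rows near 0; Ugt2b38 is lower and Ugt2b34 higher in knockout.

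Ugt2b38 (chromosome 5, 87409942 to 87424203, - strand, GRCm38) was among the most abundant UGT genes and fell. Ugt2b38 read 13.67, 13.30, 12.635 and 13.26 in the wild types, against 12.05, 12.55, 11.93, 12.62 and 12.26 in the knockouts. The genotypes did not overlap, with the nearest pair, wild type 3 at 12.635 and knockout 4 at 12.623, almost level. The difference was -0.93 (SE 0.18, limma adjusted p = 0.00145), a 1.91-fold lower level, and between -1.13 and -0.78 on leaving out single libraries.

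Ugt2b37 (87240493 to 87254804, - strand), a close relative of Ugt2b38, had a higher mean in knockout. Ugt2b37 read 12.03, 12.44, 12.11 and 12.53 in the wild types, against 12.58, 12.46, 12.53, 12.74 and 12.68 in the knockouts. Knockout 2 and knockout 3 lay below wild type 4, and the other 3 knockouts above all wild types. The difference of 0.32 (SE 0.12, limma adjusted p = 0.0754) did not pass, and 6 of 22 alternatives gave a call: quantile normalization, the 3 other scalings, and leaving out wild type 2 or wild type 4.

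Within a library, Ugt2b38 minus Ugt2b37 was 1.64, 0.86, 0.53 and 0.73 in the wild types, against -0.54, 0.10, -0.60, -0.12 and -0.43 in the knockouts. Ugt2b38 was thus the higher of the pair in 4 of 4 wild types and 1 of 5 knockouts, and the ranges did not overlap. The mean difference was 0.94 ± 0.49 (SD, n = 4) and -0.32 ± 0.30 (SD, n = 5). This pair was chosen after its values were seen, so no test is given. A ratio within a library is not altered by a scaling factor per library.

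The coding sequences of Ugt2b37 and Ugt2b38 are 94.1% identical and the last 500 bases of their transcripts 89.1%. Percent identity, here and below, is the share of all alignment columns, with gap columns counted. The last 60 coding bases, with the differing bases in capitals, show how alike the 3′ parts are.
Ugt2b37, last 60 coding bases: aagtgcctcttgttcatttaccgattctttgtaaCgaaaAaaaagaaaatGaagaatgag
Ugt2b38, last 60 coding bases: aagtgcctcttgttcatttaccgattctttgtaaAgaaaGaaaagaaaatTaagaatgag
No stretch of 50 bases in the last 500 of Ugt2b38 occurred in a transcript of another gene, and 3.1% of those of Ugt2b37 occurred in Ugt2b5. Read length and the handling of reads that fit several genes are not labelled, and exchange of reads between these rows was not tested.

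The windows before the start sites of Ugt2b37, Ugt2b38 and Ugt2b5 are shown because these relatives, alike in upstream sequence, had log2 differences of 0.32, -0.93 and -0.15. The sequences are RefSeq's for GRCm38.p6, the 250 bases before the start on the - strand, at chr5:87254789-87255038 for Ugt2b37, chr5:87424204-87424453 for Ugt2b38 and chr5:87140341-87140590 for Ugt2b5. Capitals mark AGGTCA, the half-site of many nuclear receptors, including REV-ERB and ROR.
Ugt2b37: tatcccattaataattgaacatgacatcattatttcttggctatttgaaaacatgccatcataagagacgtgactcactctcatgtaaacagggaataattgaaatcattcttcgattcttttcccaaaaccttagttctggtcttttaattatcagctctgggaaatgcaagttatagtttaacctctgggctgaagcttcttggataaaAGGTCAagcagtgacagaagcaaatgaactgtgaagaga
Ugt2b38: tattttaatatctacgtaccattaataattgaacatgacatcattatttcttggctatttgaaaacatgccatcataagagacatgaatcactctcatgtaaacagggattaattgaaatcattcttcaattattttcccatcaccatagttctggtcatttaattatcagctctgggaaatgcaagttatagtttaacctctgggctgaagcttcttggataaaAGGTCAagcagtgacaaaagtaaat
Ugt2b5: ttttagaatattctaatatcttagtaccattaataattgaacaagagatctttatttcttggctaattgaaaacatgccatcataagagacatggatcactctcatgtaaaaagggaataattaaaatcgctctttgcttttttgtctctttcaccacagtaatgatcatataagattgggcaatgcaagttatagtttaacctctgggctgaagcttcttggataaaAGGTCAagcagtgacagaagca
Against Ugt2b38, identical alignment columns (gaps counted) made up 84.8% in Ugt2b37, 81.5% in Ugt2b5, 60.8% in Ugt2b36 and 49.3% in Ugt2b34. The windows of Ugt2b37 and Ugt2b5 are offset from that of Ugt2b38, and the resulting gap columns lower their shares. The AGGTCA match starts 39 bases before the RefSeq start of Ugt2b37, 25 before that of Ugt2b38 and 22 before that of Ugt2b5. The window of Ugt2b36, a gene with an x of at most 4.42, holds the match at 25 bases too, and that of Ugt2b34 holds none. A match is a description of the letters and not evidence of binding.

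Over the 34 members with a promoter window (250 bases before to 50 after the start, 37 windows), AGGTCA on either strand was found for 10 genes, 4 of them among the 11 tested genes with a window. Among all 32851 windows 16.3% held it. Both strands were searched for each motif. The E-box CACGTG, the preferred site of Bmal1 with Clock, was in 0 of the 37 windows and in 7.15% of all windows. The D-box form TTATGTAA was found for Ugt2b1 alone, and in 0.938% of all windows. TGACNNNGC, the core of the antioxidant response element, was in 0 of 37 and in 12.4% of all. These counts cover the letters within these windows only. Ugt1a6b and Ugt3a2 were the tested members with no window.

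Ugt2b34 (86889767 to 86906937, - strand), at the edge of the cluster, rose. Ugt2b34 read 8.75, 8.62, 8.53 and 8.96 in the wild types, against 9.48, 9.65, 9.18, 9.33 and 8.99 in the knockouts. All knockouts lay above all wild types, with knockout 5 closest to wild type 4. The difference was 0.61 (SE 0.14, limma adjusted p = 0.00567), a 1.53-fold higher level.

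The other tested Ugt2 genes did not pass. Ugt2b5 averaged 6.47 ± 0.42 (SD, n = 4) in the wild types, against 6.32 ± 0.37 (SD, n = 5) (difference -0.15, SE 0.24, limma adjusted p = 0.745). Its coding sequence is 97.0% identical to that of Ugt2b38, whose mean x was 7179 against 85.4 for Ugt2b5. Ugt2a3 was the lowest tested member, at 5.11 ± 0.48 and 4.75 ± 0.82 in the same libraries (difference -0.35, SE 0.40, limma adjusted p = 0.619). Knockout values of Ugt2a3 ranged from 3.89 to 5.74, around all wild-type values. Ugt2b36 reached an x of 4.42, Ugt2b35 3.50 and Ugt2b1 2.01, and were not tested. Ugt2a1 and Ugt2a2, known from olfactory tissue, share their 3′ end and held the same value in each library, with an x of at most 1.82. Ugt2b1 also held the same value in each library as Ugt1a6a, a gene on another chromosome, so equal values at this level do not show a shared 3′ end.

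The Ugt3a genes on chromosome 15 encode glycosyltransferases that use sugars other than glucuronic acid. Ugt3a2 (9335550 to 9370955, + strand) read 13.54, 12.54, 12.73 and 12.91 in the wild types, against 12.76, 12.62, 12.22, 12.22 and 11.90 in the knockouts. Wild type 1 was the highest of all libraries, and wild type 2 lay below knockout 1 and knockout 2, so the genotypes overlapped. The difference was -0.59 (SE 0.18, limma adjusted p = 0.0405), a 1.5-fold lower level. This call was lost without wild type 1 (-0.38, adjusted p = 0.150) and in 11 other alternatives, among them all 4 rescalings and Rn45s as a covariate (-0.40, adjusted p = 0.193).

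Ugt3a1 (9276888 to 9315032, + strand), its neighbour, had 10.84 ± 0.30 (SD, n = 4) and 10.77 ± 0.23 (SD, n = 5), a difference of -0.08 (SE 0.14, limma adjusted p = 0.779). The coding sequences of the 2 genes are 93.2% identical. Their last 500 transcript bases, from which tags come, had 379 identical of 575 alignment columns (65.9%), with no 50-base stretch in common. Gap columns lower this share, so it is not a measure of mismatched bases alone. Within a library, Ugt3a2 minus Ugt3a1 was 2.27, 1.77, 2.20 and 2.11 in the wild types, against 1.63, 1.77, 1.64, 1.57 and 1.28 in the knockouts. All knockouts lay below all wild types in this ratio, with knockout 2 and wild type 2 almost level. The pair was chosen after its values were seen and no test is given.

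**Figure D4:**
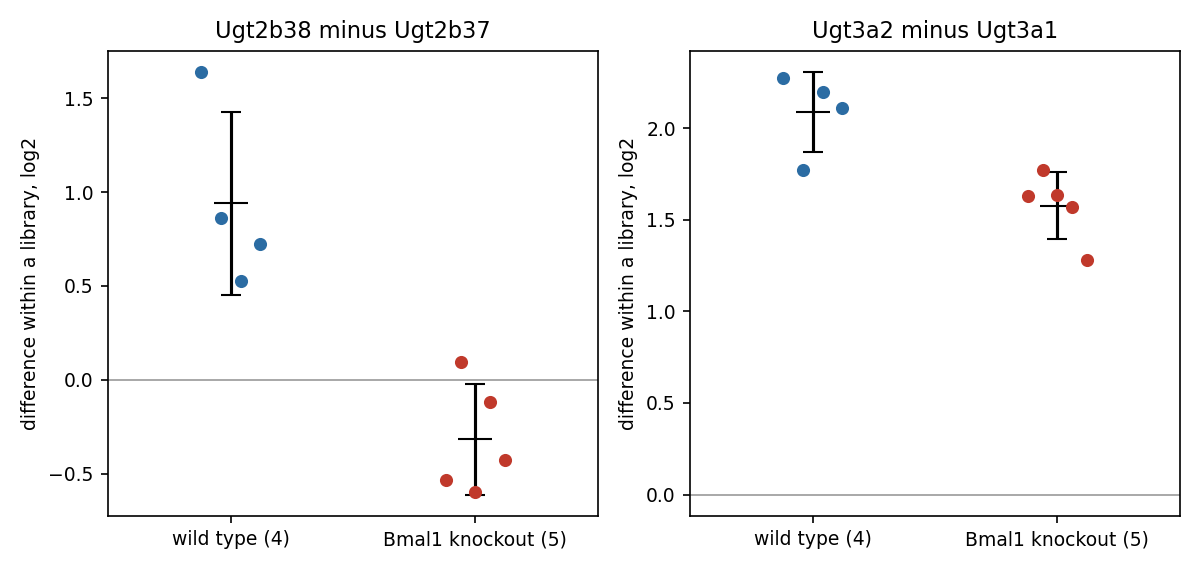
Within-library log2 difference between 2 related genes, Ugt2b38 minus Ugt2b37 (left) and Ugt3a2 minus Ugt3a1 (right), in 4 wild-type (blue) and 5 knockout (red) libraries, with mean and SD. The left panel passes from a mean of 0.94 to -0.32 and the right from 2.09 to 1.58, with no overlap between genotypes in either.

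Ugt8a (chromosome 3, 125865271 to 125938619, - strand) encodes ceramide galactosyltransferase, which uses UDP-galactose to make galactosylceramide, the precursor of sulfatide, a lipid of myelin and of kidney tubules. Its difference was the most negative among the 13 tested members. Ugt8a read 10.25, 10.20, 10.85 and 10.93 in the wild types, against 9.65, 10.02, 9.21, 9.61 and 9.41 in the knockouts. Every knockout was below every wild type. The difference was -0.98 (SE 0.17, limma adjusted p = 0.000649), a 1.97-fold lower level, and between -1.10 and -0.86 on leaving out single libraries. The myelin markers Sox10 and Mag were under an x of 10 in all libraries, and the summed x of 5 myelin markers was 50.3 to 82.9 in wild type and 51.3 to 80.0 in knockout, against an Ugt8a x of 1178 to 1943 in wild type.

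Sulfotransferase transcripts in these kidneys were nearly all Sult1d1, which sulfates dopamine and other catecholamines and had the highest level of all members. Sult1d1 (chromosome 5, 87554645 to 87569027, - strand) held 91.5% ± 1.51 (SD, n = 4) of the summed SULT x in the wild types, against 92.6% ± 1.77 (SD, n = 5). Sult1d1 read 13.41, 13.61, 13.40 and 13.83 in the wild types, against 13.77, 14.03, 13.54, 13.99 and 13.88 in the knockouts. Knockout 2, 4 and 5 lay above all wild types, and knockout 1 and 3 below wild type 4. The difference of 0.28 (SE 0.13, limma adjusted p = 0.164) did not pass, though it did after quantile normalization (0.43, adjusted p = 0.0170) and when scaled to totals without Rn45s (0.39, adjusted p = 0.0471).

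Sult1a1 (chromosome 7, 126672865 to 126676432, - strand), the phenol sulfotransferase, was at a far lower level and rose. Sult1a1 read 6.69, 6.79, 6.64 and 6.24 in the wild types, against 7.46, 7.12, 7.05, 7.48 and 7.03 in the knockouts, with no overlap. The difference was 0.64 (SE 0.18, limma adjusted p = 0.0235), a 1.56-fold higher level. The call was lost without wild type 4 (adjusted p = 0.0884), knockout 1 (0.0558) or knockout 4 (0.0621) and with Rn45s as a covariate (0.0664), with differences of 0.52 to 0.61. Exons of Sult1a1 overlap those of Sgf29 on the other strand, listed in the tables under its older symbol Ccdc101, which had a difference of 0.24 (SE 0.21, limma adjusted p = 0.496). The authors' strand setting is not given in the sources used here.

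Sult1c2 (chromosome 17, 53829637 to 53846339, - strand) was the next most abundant SULT gene after Sult1d1. Sult1c2 read 9.88, 9.45, 9.62 and 9.59 in the wild types, against 10.16, 9.91, 9.69, 9.33 and 9.06 in the knockouts, which spread to both sides. The difference was -0.004 (SE 0.18, limma adjusted p = 0.990). Sult1b1, which sulfates thyroid hormones, had 7.53 ± 0.14 (SD, n = 4) and 7.43 ± 0.21 (SD, n = 5), a difference of -0.10 (SE 0.15, limma adjusted p = 0.717).

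The other 15 SULT rows were not tested, and 7 of them, Sult1c1, Sult2a2, Sult2a4, Sult2a5, Sult2a6, Sult2a7 and Sult3a1, were at 0 in all 9 libraries. The Sult2a genes encode hydroxysteroid sulfotransferases, best known from liver. Sult2a3 was read in all wild types, at an x of 9.05, 10.4, 5.88 and 17.5, and in knockout 3 at 6.03, while the other 4 knockouts had an x of at most 0.103. It reached an x of 10 in 2 libraries only and so failed the filter. Without a filter the difference was -2.87 (SE 0.61, limma adjusted p = 0.00709). Sult2a3 was singled out after its values were seen, and knockout 3 lay above wild type 3, so the genotypes overlapped. Of 50-base stretches in its last 500 bases 6.43% also occur in Sult2a4, Sult2a5 or Sult2a6, all at 0 here.

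Sult5a1 reached an x of 10 in 3 libraries, with values of 2.55 to 4.26 in wild type and 1.88 to 4.09 in knockout. Sult2b1, a cholesterol and pregnenolone sulfotransferase, was read in all 9 libraries with an x of at most 8.73. Sult6b1 reached 4.01, Sult4a1, known from brain, 3.84, the estrogen sulfotransferase Sult1e1 3.78, Sult2a8 2.05 and Sult2a1 1.09. None of these rows was tested.

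Genes around conjugation were read from 5 lists. The lists cover UDP-glucuronic acid supply, sulfate uptake with PAPS synthesis, desulfation, regulators of conjugation genes, and efflux of conjugates. Of their 45 tested genes, 15 of them regulators, 3 rose and 14 fell, with a median log2 difference of -0.18. The share changed over all genes was 14.4%, as given above. The lists were chosen with earlier results of these data known, so their counts are not read as an excess over that share. The plot of genes around conjugation shows those named in the text.

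**Figure D5:**
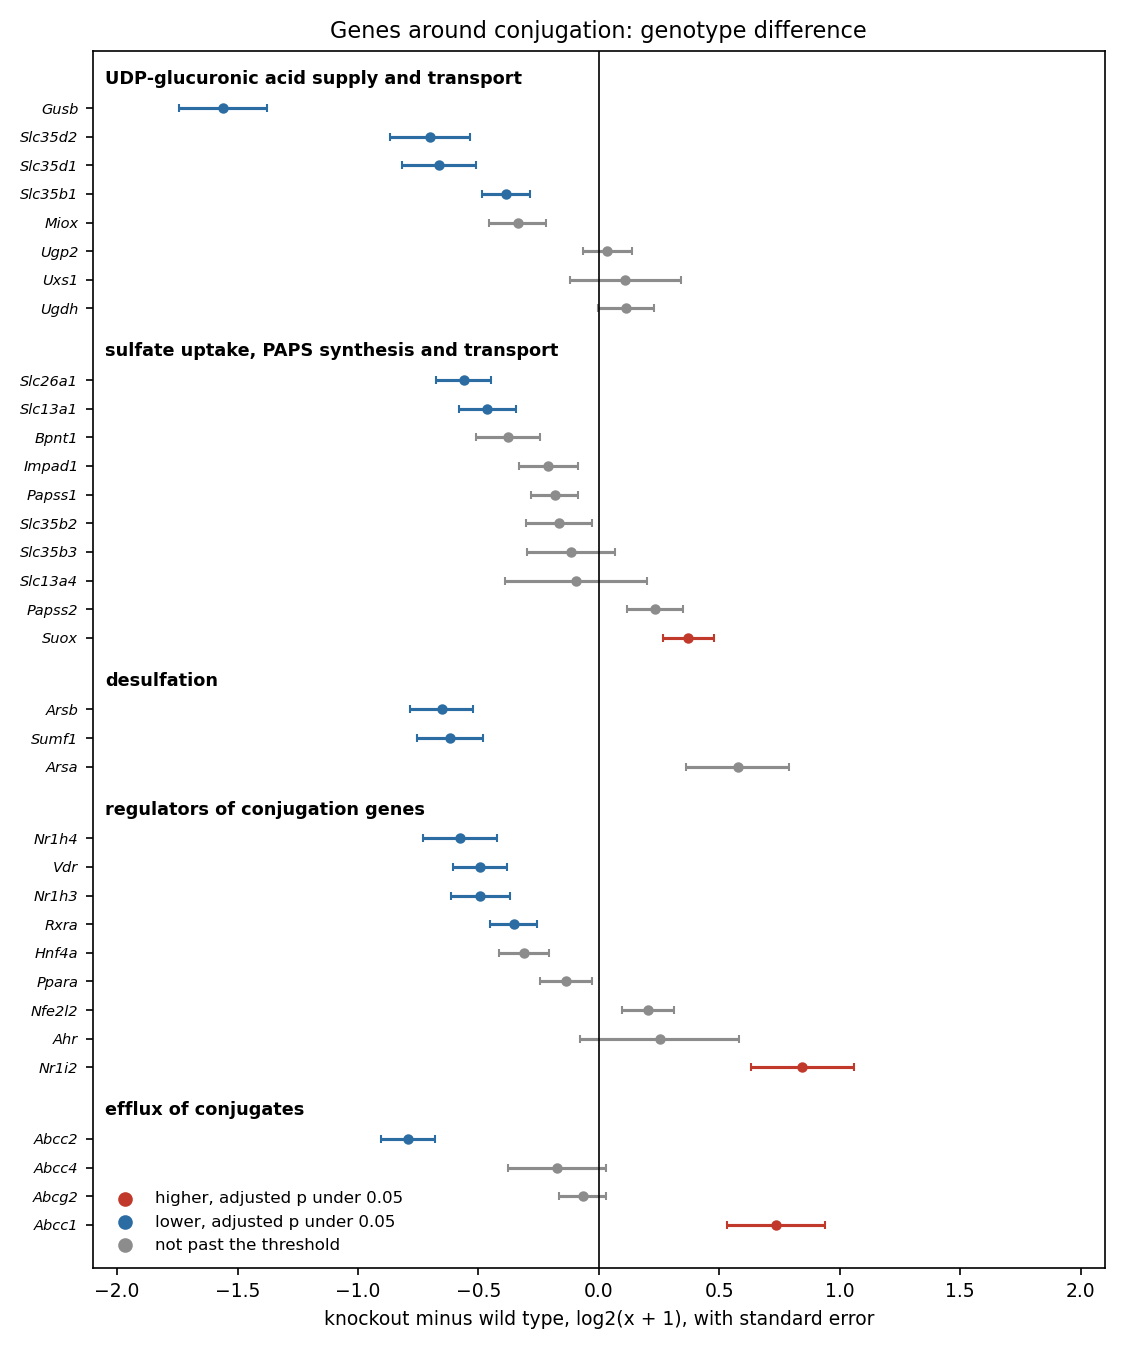
Knockout minus wild type on the log2(x + 1) scale, with standard error, for the 34 of 45 tested genes of 5 lists around glucuronidation and sulfation that the text names. Most points lie left of 0; Gusb has the largest decrease, and Suox, Nr1i2 and Abcc1 are the genes called higher (red).

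Enzymes that make the glucuronic acid donor did not pass, while 3 Slc35 transporters and Gusb fell. Ugp2, which makes UDP-glucose, was at 0.04 (SE 0.10, limma adjusted p = 0.864) and Ugdh, which oxidizes it to UDP-glucuronic acid, at 0.11 (SE 0.12, adjusted p = 0.570). The transporters Slc35d1 (-0.66, SE 0.15, limma adjusted p = 0.00718) and Slc35d2 (-0.70, SE 0.17, adjusted p = 0.00785) and Slc35b1 (-0.38, SE 0.10, adjusted p = 0.0135) fell, each with all knockouts below all wild types. SLC35D1 carries UDP-glucuronic acid into the endoplasmic reticulum, where UGT enzymes work. The substrates of Slc35d2 and Slc35b1 were not examined, and their fall is not read as a change in donor transport. Gusb, lysosomal β-glucuronidase, is in the same list but removes glucuronic acid, and fell by 1.56 (SE 0.18, adjusted p = 1.16e-05). Miox, which breaks down inositol to glucuronate, had -0.34 (SE 0.12, adjusted p = 0.0629) and Uxs1 0.11 (SE 0.23, adjusted p = 0.810).

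For sulfation, the enzymes of donor synthesis did not pass and 2 sulfate carriers fell. The PAPS synthases Papss1 and Papss2 had -0.18 (SE 0.10, limma adjusted p = 0.241) and 0.23 (SE 0.12, adjusted p = 0.206). The tubular sulfate transporters Slc13a1 (-0.46, SE 0.12, adjusted p = 0.0131), of the apical membrane, and Slc26a1 (-0.56, SE 0.11, adjusted p = 0.00247), of the basolateral membrane, fell. Suox, sulfite oxidase, which produces sulfate, rose by 0.37 (SE 0.11, adjusted p = 0.0256), a call made in 17 of 22 alternatives and lost without wild type 3 or 4, knockout 1 or 3, or both libraries of highest globin share. Bpnt1, Impad1, Slc13a4, Slc35b2 and Slc35b3 did not pass. Among genes of desulfation, Arsb (-0.65, adjusted p = 0.00216) and Sumf1 (-0.62, adjusted p = 0.00461) fell. Arsb is a lysosomal sulfatase of glycosaminoglycans and Sumf1 activates sulfatases. Arsa, which removes the sulfate of sulfatide, had 0.58 (SE 0.21, adjusted p = 0.0832).

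Of 15 tested regulators 1 rose and 4 fell. Nr1i2, the xenobiotic receptor PXR, rose by 0.85 (SE 0.21, limma adjusted p = 0.0126). Vdr (-0.49, limma adjusted p = 0.00572), Nr1h3 (-0.49, 0.0115), Nr1h4 (-0.57, 0.0167) and Rxra (-0.35, 0.0214), which encode the receptors for vitamin D, oxysterols and bile acids and their shared partner, fell. Rxra was called in 15 of 22 alternatives, and not under any of the 4 rescalings or without wild type 3 or 4 or knockout 2. Nr1h4 was called in 17, and among single libraries its call was lost without wild type 1. Nr1i3, encoding the receptor CAR, was under an x of 10 in all libraries, and Nfe2l2, Ahr, Ppara and Hnf4a did not pass. Among efflux pumps Abcc2, the apical exporter of conjugates, fell by 0.79 (SE 0.11, adjusted p = 9.22e-05) and Abcc1 rose by 0.74 (SE 0.20, adjusted p = 0.0205), a call lost without knockout 1 or knockout 3. Abcc4 and Abcg2 had -0.17 (SE 0.20, adjusted p = 0.627) and -0.07 (SE 0.10, adjusted p = 0.703).

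Markers of several tubule segments moved with genotype too. The marker lists were chosen with earlier results of these data known, so their counts may depend on that choice. Leaving out any single library other than knockout 5 ended at least 1 of the distal or collecting duct calls given here. Among 12 markers of the proximal tubule there were 5 that fell and 0 that rose: Slc22a6 (-1.21), Slc7a13 (-1.22), Slc13a3 (-0.96), Ggt1 (-0.89) and Slc27a2 (-0.61). The other 7 did not pass, with differences from -0.62 (Lrp2) to 0.17 (Aqp1). The summed x of the 12 was 130869 to 161113 in wild type and 93960.5 to 114973 in knockout. Of 7 thick limb and distal markers 4 rose, Cldn16, Calb1, Pvalb and Slc12a3 (0.44 to 0.67), with a summed x of 19743 to 37593 and 24527 to 35014. Umod had -0.47 (limma adjusted p = 0.067). Slc12a3 was called in 13 of 22 alternatives and Pvalb in 15. Of 8 collecting duct markers 3 rose, Slc4a1, Atp6v1g3 and Aqp2 (0.45 to 0.96), with a summed x of 4129 to 4682 in wild type and 5334 to 7468 in knockout. The other 5 had differences from -0.24 (Aqp3) to 0.29 (Avpr2), and Aqp2 was called in 14 of 22 alternatives and Atp6v1g3 in 17. Of 6 tested urothelial markers 5 rose, Upk1a, Upk1b, Upk3a, Krt15 and Psca (1.90 to 3.22), with a summed x over 7 markers of 52.6 to 173 and 265 to 956, and Upk1b was called in 15 of 21 alternatives. The part of these shifts in the UGT and SULT results was not tested.

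Of 9 hepatocyte markers Tat was at 0 and Ahsg and Cps1 were under an x of 10 in all libraries. Of 6 tested, Alb (-2.02) and Serpina1b (-0.95) fell and Apoa2 (1.45) rose. The 9 summed to an x of 5026 to 8475 in the wild types and 3847 to 7589 in the knockouts. Most of this sum was Ttr, at an x of up to 7896 (wild type 1) and not called (-0.32, limma adjusted p = 0.272). Among 6 adrenal markers 1, Star, passed the filter, with no change called (adjusted p = 0.944), and Cyp11b1 was at 0. The 5 blood markers, 4 globins and Alas2, had differences of 0.72 to 0.90 (limma adjusted p 0.110 to 0.202). Of 10 kidney genes known as male-biased 9 fell, with a median of -2.15, and of 6 known as female-biased 5 rose and 1 fell, with a median of 2.65. Over all tested genes 8.2% fell and 6.16% rose. Both lists were chosen with earlier results of these data known, so their counts and medians may be set in part by that choice. Slc7a13 is in both the male-biased and the proximal tubule list, so its fall is counted in each. Transcripts of the Y chromosome (Ddx3y, Eif2s3y, Kdm5d and Uty) summed to an x of 1793 to 2161 in all 9 libraries, in none of which Xist exceeded a log2 value of 3.22. The part of these shifts in the UGT and SULT results was not tested.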

How the data were processed

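Mouse kidney RNA for 9 libraries was extracted with Trizol and made into 3′ libraries with the Lexogen QuantSeq kit, per the labels' protocols. The authors deposited 1 table per library with log2 values, log2(x + 1) of an adjusted read count for 23282 symbols. Bowtie2 and bedtools, with no version, and the mm10 build are named per the submitters' processing notes. How counts were adjusted, with which annotation and strand setting, is not given in the sources used here. Such values are not counts, so limma 3.58.1 (R 4.3.3) was fitted to the deposited values with genotype as the term, variance following the mean, two-sided, with Benjamini-Hochberg adjustment over the 13481 rows with x of at least 10 in at least 4 libraries. The fit was tested on simulated data. Samples were grouped by their titles. Every member is named; changed members and the 2 most abundant of each family are given by library. Members, lists and marker genes were chosen with earlier results of these data known. Gene positions and transcripts came from GENCODE M21 (GRCm38), promoter windows from RefSeq. Alternatives were other filters, scalings, a pseudocount of 5, other variance models, Rn45s as a covariate, the replicate number as a block, and leaving out libraries. Some items of the lists and 1 of the 5 motifs searched are not reported here.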

Additional observations from a re-analysis of the deposited data

How the results depend on the processing

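The UGT count of 4 was 3 to 5 over all 22 alternatives, the pathway count of 17 was 15 to 21, and the count over all genes of 1937 was 1312 to 2549. The SULT count of 1 became 2 with no filter (Sult2a3 added), after quantile normalization and when scaled to totals without Rn45s (Sult1d1 added in both), and 0 with Rn45s as a covariate. On leaving out single libraries it was 0 to 1, with 0 without wild type 4, knockout 1 or knockout 4. Differences near 0 changed sign. Ugt3a1 (-0.08) became 0.0243 after quantile normalization, 0.0284 scaled without Rn45s and 0.0415 with the Rn45s covariate, and was -0.18 to 0.0637 on leaving out single libraries. Sult1c2 (-0.004) became 0.0667 (quantile), 0.0539 (library total), 0.101 (total without Rn45s), 0.0708 (upper quartile), 0.0286 (array weights), 0.130 (Rn45s covariate) and 0.00867 (without both libraries of highest globin share), and was -0.14 to 0.139 on leaving out single libraries. Sult1b1 became 0.00091 scaled without Rn45s. Ugt2a3 has no value with x of at least 50 in 4 libraries. Deviations of same-numbered libraries correlated at r = 0.151, 0.000909, -0.00701 and 0.0407, and those of differently numbered ones at -0.161 to 0.0885. Wild type 1 with knockout 1 was thus the highest pair, but not every library correlated best with its own number. With the replicate number as a block the counts were 4 UGT, 1 SULT, 19 pathway and 1738 of all genes, and Sult1c2 was 0.139. Number 5 occurs in knockout only, so under this block knockout 5 adds nothing to the difference. Sult1c2 was 0.139 without knockout 5 too. Raw depth is unknown, which limits what can be said of rows with x under 10.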

Other observations

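Summed x over all 21 UGT rows was 30800 to 42659.5 in wild type and 24165 to 30847 in knockout, where knockout 1 lay just above wild type 3. As shares of that sum, Ugt2b38 had 27.3% ± 4.75 (SD, n = 4) in the wild types, against 19.1% ± 4.19 (SD, n = 5), and Ugt2b37 14.4% ± 3.25 and 23.5% ± 3.31. Ugt1a6b held 24.7% ± 3.96 and 25.4% ± 4.78, and Ugt3a2 22.4% ± 4.03 and 19.7% ± 2.92. Ugt2b34 held 1.19% ± 0.148 and 2.42% ± 0.287, and Ugt3a1, whose own level was not called changed, 5.21% ± 0.426 and 6.55% ± 0.422. The shares of Ugt2b34, Ugt2b37 and Ugt3a1 were each higher in knockout with no overlap between genotypes. Shares of one sum move together, so these are not independent values. Summed x over all 19 SULT rows was 11889 to 15614 in wild type and 13000 to 18053 in knockout.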
